A study of Ovis aries and Bos taurus with 10 samples.

Results

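The cell cycle and DNA replication genes described here drive a cell through its division cycle and copy its DNA. The list named 48 genes, chosen by symbol with earlier results of these data known. Some of them stand in the gene networks that the study drew from these same arrays. These are FEN1, RNASEH2A, RPA2, CENPE and CENPF for oocytes, and PLK1 and MAD2L1 for granulosa cells. A gene that the study calls WEE was also picked from these arrays and tested by qPCR, and WEE1 is on the list. Counts by compartment may therefore not be independent of that earlier knowledge. A gene was taken from the probe sets that carry its symbol in the annotation of the array, and where several did, the probe set with the highest mean log2(signal + 20) over the 6 arrays of captured cells stood for it. Of the 48 genes, 43 were found in this way, with 56 probe sets among the 24016 probe sets and 9155 gene symbols of the array. MKI67, TOP2A, MCM2, CENPE and CDKN1B were not analysed here.

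In the division cycle, cyclins switch on cyclin-dependent kinases, first to start DNA replication and then to start mitosis or meiosis. Replication needs the MCM helicase that unwinds DNA, the clamp PCNA with its clamp loader, the single-strand binding protein RPA and a supply of nucleotides, and the anaphase-promoting complex later ends division by marking cyclin B and other proteins for destruction. The oocyte of an ovarian follicle no longer replicates its DNA: it is held in the prophase of meiosis, and it stores cyclin B and other messengers for later use. The granulosa cells (GC) around it are a layer of flat, nearly resting cells in the primordial follicle, and they multiply as the follicle becomes primary and then secondary.

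The study hybridised 6 kinds of captured cells and 4 RNA preparations of whole fetal ovary to the Affymetrix Bovine Genome Array. Oocytes and GC were cut out by laser capture microdissection from primordial, primary and secondary follicles of new-born lambs less than 1 day old, which gave the oocyte arrays PDO, PMO and SECO and the GC arrays PDG, PMG and SECG, with 1 array each. The captured RNA was pooled from 2, 4 and 2 animals for the primordial, primary and secondary stages, was amplified in 2 rounds and was labelled with a turbo biotin kit (protocol P3). RNA of the ovine fetal ovary at 132 days post coitum was labelled by P3, by P2, in which the cDNA of the second round was labelled as the array maker prescribes, and by the standard protocol P1, and RNA of the bovine fetal ovary at 8 months was labelled by P1. No group had a replicate array. The p-values below therefore rest on how evenly a difference held over the stages or compartments, and not on the spread between animals. All captured RNA was ovine, so both compartments shared the match of sheep RNA to bovine probes. Fewer cells of a type and less RNA per cell could not be told apart in these captured pools.

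The labels of the captured arrays were checked against marker genes. The summed signal of the 9 oocyte markers found was 8173, 8479 and 3155 on PDO, PMO and SECO, against 3299, 6025 and 3709 on PDG, PMG and SECG, so the array of secondary oocytes had the lowest sum of all 6, which goes against its label. The zona pellucida genes weigh most in this sum. ZP2 had 348 on SECO, against 1043 on SECG, and ZP4 493, against 987, while ZP3 had 750.5, against 683. Among the other markers, MAEL had 408 on SECO, against 57.9 on SECG, OOEP 432, against 261, and NLRP5 297, against 254. GDF9, with 162 against 169, and KIT, with 225 against 241, were lower on SECO. BMP15 was below the limit on both. From 8 to 9 of these 9 markers were detected on every array, those of GC included. By qPCR on its captured samples, the study reported GDF9, BMP15 and MAEL as higher in oocytes, and AMH and GATA4 as higher in GC. The summed signal of the 11 granulosa markers found was 348, 676 and 941 on the oocyte arrays, against 833, 1399 and 2984 on the GC arrays, and AMH, FOXL2, KITLG, FSHR and CYP19A1 were detected on none of the 6. SECO also had a signal of 3838 for the haemoglobin gene HBB, against 2.00 to 398 on the other captured arrays, while HBA, HBM and ALAS2, the rest of the red blood cell list, were below the limit on SECO. It had a GAPDH 5′ signal of 40.5, the lowest of the 6, while its GAPDH 3′ signal was 13272, against 4243 to 17014 on the other captured arrays. The summed stroma markers ranged from 4429 to 15760 on oocyte arrays and from 12700 to 47110 on those of GC. Whether SECO holds the RNA its label names was not settled by these markers, and the fitted differences that rest on SECO are given below without it as well where that moved them by over 1.5 times or turned their sign. For oocyte minus GC, the fit without SECO gives the same difference as those without SECG or without the secondary stage, and it is named by the stage.

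A gene was called detected on an array when its signal reached a limit set from the share of present calls of that array, and these limits lay between 45.8 and 74.2 on the captured arrays. Signals of different probe sets were not set against each other, since every probe set has its own response. The marker sums and the choice of the probe set for a gene are the exceptions. The cell cycle and replication genes were detected more often than the genes of the array as a whole: 23 of 43 (53.5%) were detected on all 6 captured arrays, against 34.8% of all genes, and 37 of 43 (86.0%) on at least 1, against 68.6%. Single captured arrays detected between 28 and 35 of the 43. Oocyte and GC arrays of the same stage detected close numbers: PDO detected 35 and PDG 33, PMO and PMG 28 each, and SECO and SECG 31 each.

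By role, all 7 kinases of the cycle and their partners were detected on at least 1 captured array and 6 on all 6 (CDK1, CDK2, CDK4, CKS1B, CKS2 and the checkpoint kinase CHEK1). Of the 7 cyclins, 5 were detected on all 6 arrays: the mitotic cyclins CCNB1 and CCNB2, cyclin A (CCNA2), and the D cyclins CCND2 and CCND3, which pair with CDK4 in early cycle. All 5 MCM helicase genes were detected on at least 1 array, and MCM4, MCM5 and MCM6 on all 6. Of the 9 genes of the replication fork, PCNA, the clamp loader subunit RFC4, the RPA subunit RPA1 and the DNA ligase LIG1 were detected on all 6. Among the 9 mitotic kinases and genes of the checkpoint and the anaphase-promoting complex, all were detected somewhere, but only AURKA (Aurora A, a kinase of the spindle poles), BUB1B (a spindle checkpoint protein) and BIRC5 (survivin, a partner of Aurora B) on all 6.

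A set of 6 genes, 14.0% of 43 against 31.4% of all genes, were below the limit on every captured array: CCND1 and CCNE1, cyclins of the entry into S phase, PRIM1, the catalytic primase subunit, RFC2 and RPA2, subunits of the clamp loader and of RPA, and RRM2, the small subunit of ribonucleotide reductase. Their signals ranged from 1.06 (CCND1 on PDO) to 60.2 (CCNE1 on PMG). Their sister subunits RFC4, RPA1 and RRM1 were detected on all 6 arrays, with RRM1, the large reductase subunit, at 377, 256 and 272 on PDO, PMO and SECO and at 326, 238 and 401 on PDG, PMG and SECG. Of the 6 undetected genes, 5 were detected with bovine RNA under P1, where RRM2 had 109, RPA2 131, CCND1 87.8, RFC2 62.6 and PRIM1 40.9, against a limit of 28.9.

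**Figure D1:**
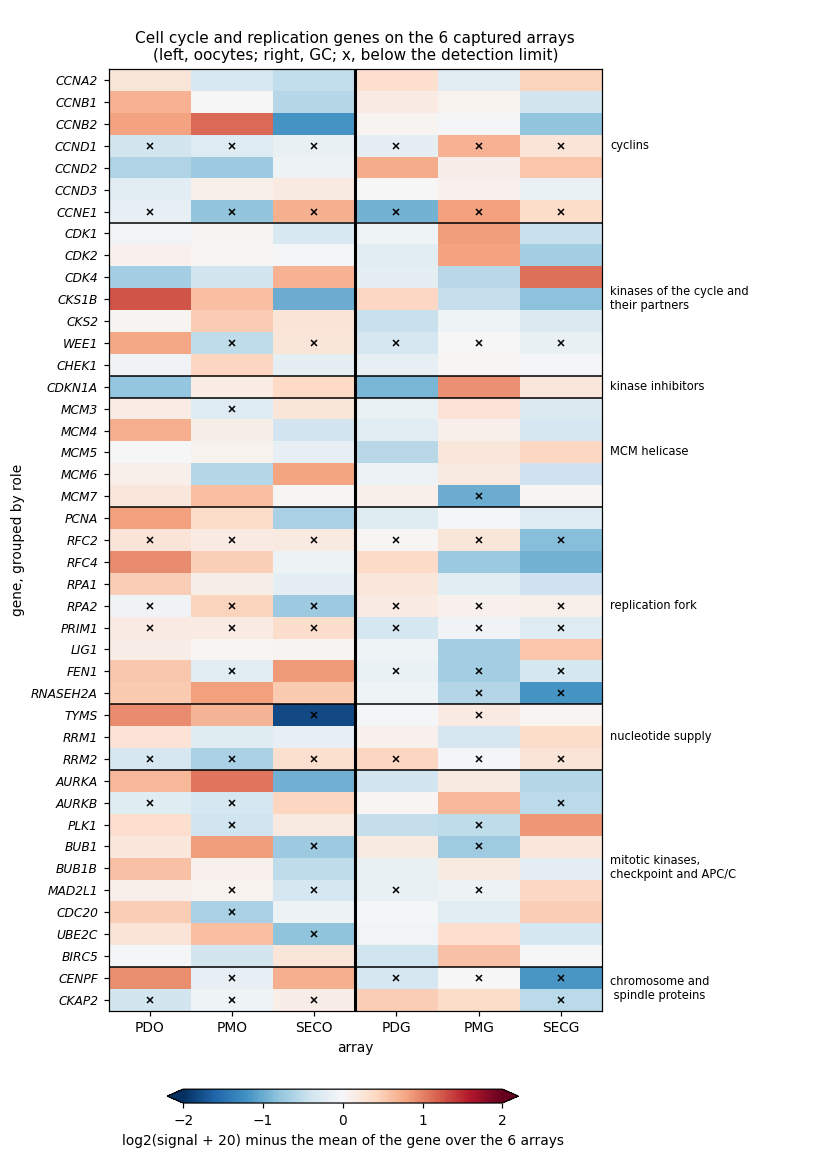
Each row is 1 of the 43 genes, ordered by role, and each column 1 captured array, oocytes left of GC; the colour is log2(signal + 20) minus the mean of that gene over the 6 arrays, and an x marks a signal below the detection limit. The 6 genes with an x on all arrays are CCND1, CCNE1, PRIM1, RFC2, RPA2 and RRM2, and the column of SECO holds the lowest value of 13 of the 37 other genes.

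The first comparison asked which genes differed between the oocyte and its GC. Oocyte arrays had more CKS2 and RNASEH2A signal than any GC array and less CCND2 signal than any GC array, and these were the only 3 of the 37 detected genes whose compartments did not overlap. RNASEH2A was higher by 1.24 ± 0.34 (SE) and CCND2 lower by 0.96 ± 0.32 on the log2(signal + 20) scale. Neither difference passed the test: in limma, with 2 residual degrees of freedom, 0 of 11642 probe sets reached an adjusted p of 0.05 (0.0% called), the smallest adjusted p was 0.406, and 1295 probe sets (11.1%) had an unadjusted p under 0.05. Of the 37 genes, 4 (10.8%) did so. The 2 genes with no overlap and a higher oocyte signal were 5.41% of 37, against 8.04% of all 6284 detected genes, and the 1 with a higher GC signal was 2.7%, against 7.18%.

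CKS2, a small protein that binds the cyclin-dependent kinases, measured 7119, 9699 and 8139 on PDO, PMO and SECO, against 4996, 6435 and 5565 on PDG, PMG and SECG. The lowest oocyte array lay above the highest GC array, and the oocyte signal was higher by 0.51, 0.59 and 0.55 in log2 at the 3 stages. Its mean difference was 0.55 ± 0.30 (adjusted p = 0.524 in limma). Under quantile normalisation the compartments of CKS2 overlapped, while those of RNASEH2A and CCND2 still did not.

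RNASEH2A, the catalytic subunit of the enzyme that removes ribonucleotides from DNA, had signals of 147, 186 and 148 on the oocyte arrays, against 89.7, 57.7 and 31.5 on the GC arrays. Only the first of the GC signals was above the detection limit, so the gap at the primary and secondary stages, 1.41 and 1.70 in log2, was measured against arrays that did not detect the gene. Its adjusted p was 0.406 in limma and ranged from 0.162 to 0.618 over the alternative settings.

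CCND2, the D cyclin best known from dividing granulosa cells, had signals of 136, 122 and 199 on the oocyte arrays, against 376, 239 and 328 on the GC arrays. It was lower in oocytes at all 3 stages, by 1.35, 0.86 and 0.67 in log2, and its adjusted p was 0.413 in limma. Among the other cyclins detected on all 6 arrays, only CCNA2 was also lower in oocytes at all 3 stages, with 175, 111 and 96.5 on the oocyte arrays, against 187, 122 and 204 on the GC arrays. These differences were 0.09, 0.11 and 0.94 in size. Their mean of -0.38 ± 0.33 had an adjusted p of 0.686 in limma and was -0.10 without the secondary stage. The third D cyclin, CCND3, lay between 194 and 262 in oocytes and between 206 and 244 in GC. Its difference of 0.04 ± 0.31 had both signs over the stages and was -0.09 without the secondary stage.

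Of the 6 detected genes of the replication fork, 4 lay higher in oocytes at every stage (RFC4, RPA1, FEN1 and RNASEH2A), among 5 such genes of all 37 (13.5%, against 19.9% of all genes). RFC4 had 4338, 3140 and 2087 on PDO, PMO and SECO, against 2947, 1330 and 1154 on PDG, PMG and SECG. It was higher in oocytes by 0.55, 1.23 and 0.84 at the 3 stages, with a mean of 0.88 ± 0.31 (adjusted p = 0.414 in limma), although PDG exceeded SECO. RPA1, the large RPA subunit, had 1755, 1348 and 1080 on the oocyte arrays, against 1446, 1051 and 926 on the GC arrays, a difference of 0.28 ± 0.30 (adjusted p = 0.743). FEN1, the nuclease that trims Okazaki fragments, was detected on PDO and SECO, at 66.5 and 86.6, and on no GC array, while PMO, at 30.7, was below the limit as well. Its fitted difference was 0.78 ± 0.32 (adjusted p = 0.438 in limma) and rests in part on signals below the limits.

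PCNA, the sliding clamp of the replication fork, measured 1705, 1235 and 603 on PDO, PMO and SECO, against 808, 943 and 794 on PDG, PMG and SECG. The GC signals stayed within a narrow band, and the oocyte signals ran from above to below it. The oocyte minus GC difference of PCNA was 1.06, 0.38 and -0.39 at the 3 stages, and its mean of 0.35 ± 0.37 had an adjusted p of 0.741 in limma. Without the primordial stage the mean was -0.002, and without the secondary stage it was 0.72. AURKA was highest at the primary stage in both compartments, with 2028, 2701 and 648 on the oocyte arrays, against 976, 1453 and 849 on the GC arrays. Its difference was 1.04, 0.89 and -0.38 at the 3 stages, with a mean of 0.52 ± 0.38 (adjusted p = 0.629 in limma). Without the secondary stage the mean was 0.96 (adjusted p = 0.416 in limma). On the second AURKA probe set, given below, SECO lay above SECG. CKS1B and CCNB2, described with the stages below, had means of 0.58 ± 0.36 (adjusted p = 0.564 in limma) and 0.50 ± 0.38 (adjusted p = 0.642). Without the secondary stage these means were 0.96 and 0.95.

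**Figure D2:**
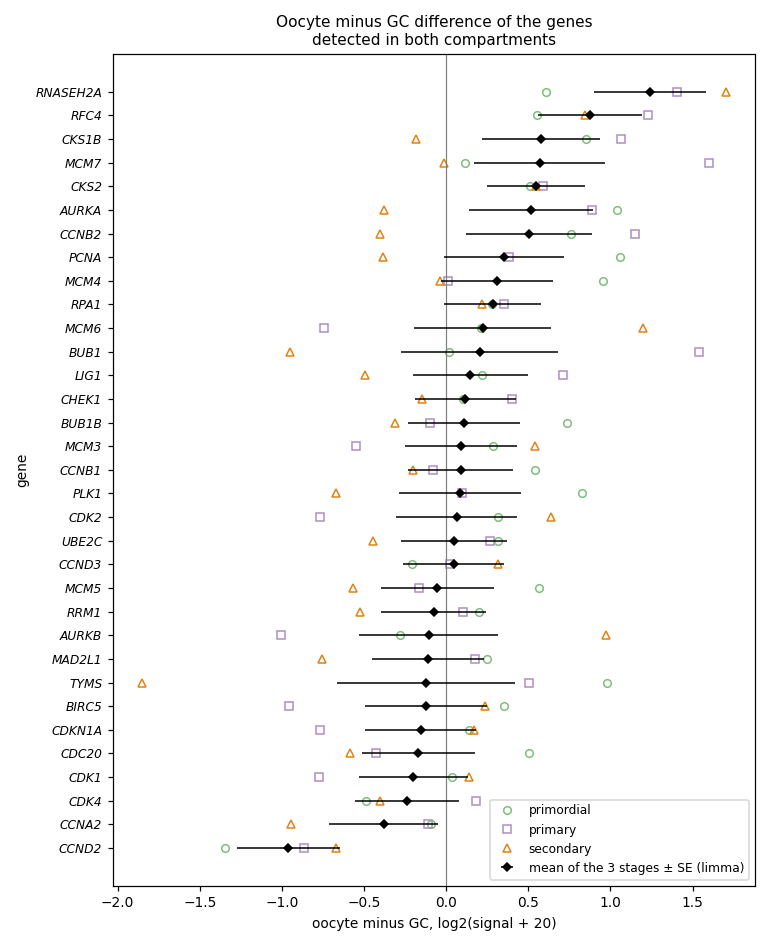
Oocyte minus GC difference in log2(signal + 20) of the 33 genes detected in both compartments, with the difference at each stage as an open symbol and the mean of the 3 stages with its SE as a diamond. CKS2 has its 3 stages close together between 0.51 and 0.59, and AURKA, PCNA, CCNB2 and CKS1B have their secondary stage left of 0 and both other stages right of it.

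The number of genes that separated the compartments changed with SECO. With SECO left out, a setting chosen after the data were seen, 10 of 37 genes (27.0%) had every oocyte signal above every GC signal, against 18.5% of all genes, and 1 (CCND2) had the reverse, against 14.9%. The 10 were AURKA, CCNB2, CKS1B, CKS2, MCM4, MCM7, PCNA, RFC4, RNASEH2A and TYMS, the gene of thymidylate synthase. The median oocyte minus GC difference of the 37 genes was 0.09, against 0.05 over all 6284 genes. At all 3 stages, 2 genes (5.41%, against 16.5%) lay higher in GC. The median was 0.32 at the primordial stage (0.04 over all genes), 0.10 at the primary stage (0.03) and -0.15 at the secondary stage (0.04). Without the secondary stage it was 0.29, and without the primordial stage -0.01.

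A further 4 genes were detected in only 1 compartment. CENPF, a kinetochore protein, reached the limit on PDO and SECO, with 108 and 91.9, and had 10.2 to 48.4 on the GC arrays, all below the limit. Its fitted difference was 0.99 ± 0.44 (adjusted p = 0.457 in limma), and without the secondary stage 0.54. WEE1, the kinase that restrains CDK1, was detected on PDO alone, at 94.8. Its fitted difference was 0.33 ± 0.38 (adjusted p = 0.766 in limma), and leaving out single arrays gave -0.06 to 0.75. By qPCR, the study reported the gene it calls WEE as higher in oocytes. CKAP2, a spindle protein, had 41.8 to 66.9 on the oocyte arrays, all below the limit, against 91.3 and 82.3 on PDG and PMG, which detected it, and 35.0 on SECG, which did not. The 3 genes detected in oocytes alone, FEN1 included, were 6.98% of 43, against 4.95% of all genes, and the 1 detected in GC alone was 2.33%, against 7.47%. All 3 of the oocyte genes bear names that the study had already picked from these arrays, so their share is not independent of that knowledge.

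The next comparison followed the genes over primordial, primary and secondary follicles. CKS1B and RFC4 were at least 2-fold lower at the secondary than at the primordial stage in both compartments, and CDK4 and CDKN1A were at least 2-fold higher in both. No difference passed the test here either: for secondary minus primordial, 0 of 11642 probe sets passed an adjusted p of 0.05 in limma (0.0% called), the smallest was 0.238, and 1325 had an unadjusted p under 0.05, among them 5 of the 37 genes (13.5%, against 12.9% of all detected genes). The 2 lower genes were 5.41% of 37, against 1.93% of all genes, and the 2 higher genes 5.41%, against 3.84%.

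CKS1B, the other small kinase-binding protein, which also helps to destroy CDK inhibitors, had signals of 1877, 1186 and 377 in primordial, primary and secondary oocytes, against 1030, 557 and 430 in GC. Both compartments ran downward at every step, and the secondary signals lay below all others. Secondary minus primordial was -1.74 ± 0.44 (adjusted p = 0.268 in limma, 0.0595 to 0.694 over the alternatives), and it was -2.26 in oocytes and -1.22 in GC. Without SECO the fitted value was -1.17 (adjusted p = 0.522). Its paralogue CKS2 showed no such order: it was highest at the primary stage in both compartments, and its secondary minus primordial difference was 0.17 ± 0.37.

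RFC4 was lower at the secondary stage by 1.05 in oocytes and by 1.34 in GC, from the signals given above, and the order of the stages was the same in both. The fitted value was -1.19 ± 0.39 (adjusted p = 0.344 in limma), and without SECO it was -1.17. Under quantile normalisation RFC4 no longer passed the 2-fold limit in both compartments, and CKS1B did. CCNB1 and RPA1 completed the 4 genes with a signal that was lower at each later stage in both compartments, 10.8% of 37 against 5.7% of all genes. CCNB1, the cyclin of the meiosis-promoting kinase, had 854, 517 and 345 in oocytes, against 580, 547 and 399 in GC, with a secondary minus primordial difference of -0.89 ± 0.39 (adjusted p = 0.458). For RPA1 it was -0.66 ± 0.37 (adjusted p = 0.533). None of the 37 genes was higher at each later stage in both compartments, against 6.03% of all genes. Within oocytes alone, 11 genes ran downward over the 3 stages (29.7%, against 18.7%) and 4 upward (10.8%, against 20.5%), and within GC alone 7 ran downward (18.9%, against 17.2%) and 2 upward (5.41%, against 18.6%).

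CCNB2, the second mitotic B cyclin, had 1010, 1265 and 239 in oocytes, against 588, 559 and 322 in GC. Its largest step was that between primary and secondary oocytes, and its secondary minus primordial difference was -1.41 ± 0.47 (adjusted p = 0.352 in limma), which without SECO was -0.73 (adjusted p = 0.682). PCNA and AURKA had differences of -0.75 ± 0.45 and -0.91 ± 0.46, and without SECO of -0.19 and -0.24. In GC alone, secondary minus primordial was -0.02 for PCNA and -0.20 for the probe set that stands for AURKA. In both compartments the secondary array had the lowest signal of the 3 for both genes, and the difference between the compartments in this step was not tested. The second AURKA probe set had 215, 241 and 108 in oocytes, against 118, 136 and 40.0 in GC, the last below the limit. On that probe set the secondary GC signal lay far below the primordial one. SECO also lay above SECG there, the reverse of the probe set that stands for AURKA.

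CDK4, the partner kinase of the D cyclins, had 277, 346 and 750 in oocytes, against 395, 303 and 998 in GC, so both secondary arrays stood above the other 4. Its secondary minus primordial difference was 1.33 ± 0.39 (adjusted p = 0.310 in limma), and without SECO 1.46. CDKN1A, the CDK inhibitor p21, had 79.0, 168 and 204 in oocytes, against 69.9, 301 and 180 in GC, and both primordial arrays lay below the other 4. Its difference was 1.17 ± 0.41 for secondary minus primordial (adjusted p = 0.365) and 1.38 ± 0.41 for primary minus primordial (adjusted p = 0.740). CDK4 and CDKN1A were named after their values were seen. CDKN1A was the only one of the 37 genes with an unadjusted p under 0.05 between primary and primordial follicles (2.7%, against 6.33% of all genes), where 0 of 11642 probe sets passed (0.0% called) and 762 had an unadjusted p under 0.05.

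**Figure D3:**
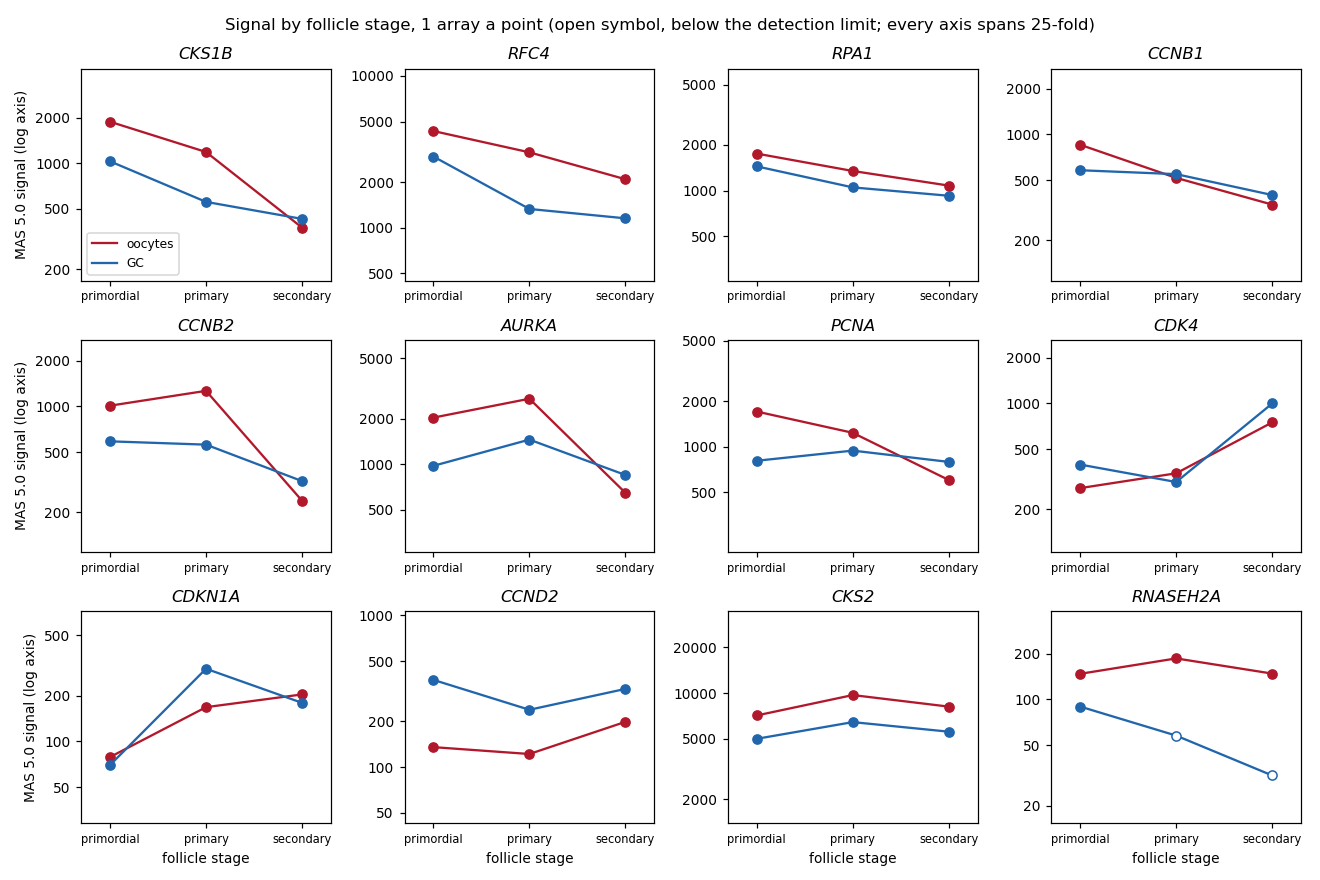
MAS 5.0 signal of 12 genes at the 3 follicle stages on log axes that each span 25-fold, with oocytes in red and GC in blue, 1 array a point, and open symbols below the detection limit. CKS1B, RFC4, RPA1 and CCNB1 run downward in both compartments, CCNB2, AURKA and PCNA lie below GC at the secondary stage only, and both secondary arrays are highest for CDK4.

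The remaining replication genes varied without a common order. MCM4, an MCM helicase subunit, had 832, 540 and 378 on PDO, PMO and SECO, against 420, 536 and 388 on PDG, PMG and SECG, so the primordial oocyte stood apart. MCM6 was highest on SECO, with 243, 145 and 402 on the oocyte arrays, against 207, 256 and 164 on the GC arrays, and MCM5 ran upward in GC, with 95.4, 179 and 205. The secondary minus primordial differences of MCM4, MCM5 and MCM6 were -0.61 ± 0.42, 0.40 ± 0.42 and 0.19 ± 0.51, and without SECO they were -0.34, 0.78 and -0.55. TYMS, which makes the thymidine nucleotide, had 138 and 111 on PDO and PMO and only 3.36 on SECO, against 60.1, 72.0 and 64.3 on the GC arrays. Of the mitotic genes, BUB1B had 496, 342 and 221 in oocytes, against 290, 368 and 279 in GC, and UBE2C, the ubiquitin carrier of the anaphase-promoting complex, had 141, 184 and 57.1 in oocytes, against 110, 150 and 84.9 in GC. PLK1, the polo kinase of mitosis, was highest on SECG, with 173, against 55.1 to 115 on the other 5 arrays.

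Most of the other genes detected on nearly all arrays had compartments that overlapped widely. CDK1, the kinase that drives mitosis, lay between 86.2 and 117 in oocytes, against 76.6 to 214 in GC, and CDK2, the kinase of S phase, between 114 and 125, against 65.8 to 220. Both were highest on PMG, as was BIRC5, with 109 to 178 in oocytes, against 107 to 232 in GC. CHEK1 ranged from 78.0 to 129 in oocytes, against 79.4 to 93.1 in GC, and LIG1 from 166 to 178, against 93.4 to 246. A second LIG1 probe set varied more in oocytes, with 129, 135 and 45.7, against 78.2, 68.2 and 49.0 in GC. Only PDO, PMO and PDG detected it. MCM3 and MCM7, further helicase subunits, each missed the limit on 1 array: MCM3 had 70.3 to 108 in oocytes, against 68.2 to 112 in GC, and MCM7 138 to 217, against 58.4 to 148. CDC20, the activator of the anaphase-promoting complex, had 56.4 to 147 in oocytes, against 82.6 to 147 in GC. The checkpoint genes BUB1 and MAD2L1 and the kinase AURKB lay near the limits, with BUB1 between 25.5 and 115 in oocytes, against 26.3 to 67.9 in GC, MAD2L1 between 34.4 and 54.1, against 42.5 to 71.7, and AURKB between 35.5 and 75.2, against 28.5 to 91.5.

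Counted over the whole list, the secondary oocyte array was the lowest of the 6 for 13 of 37 genes (35.1%), against 16.4% of all genes, a count made after the values were seen. On SECO itself, 4 of the 13 signals (BUB1, MAD2L1, TYMS and UBE2C) were below the limit. The 13 were the cyclins CCNA2, CCNB1 and CCNB2, CKS1B and CHEK1, MCM4, PCNA, TYMS, and the mitotic genes AURKA, BUB1, BUB1B, MAD2L1 and UBE2C. SECO was at least 2-fold lower than PDO for 10 genes (27.0%, against 10.8%) and at least 2-fold higher for 2 (5.41%, against 12.7%). In GC the same comparison gave 4 lower genes (10.8%, against 8.24%) and 3 higher (8.11%, against 11.0%). The median SECO minus PDO difference was -0.20 for the 37 genes and 0.07 for all genes, and SECG minus PDG gave -0.11 and 0.00. SECO was also the array with the lowest oocyte marker sum and the HBB signal given above, and the part of these in the lower signals was not tested. In the other direction, 19 of 37 genes (51.4%, against 34.4%) were highest on PDO or PMO.

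Beside these genes, a wider list of cell cycle genes was examined, in which 102 of 153 named genes had a probe set and 74 were detected on at least 1 captured array. None of the 74 reached an adjusted p of 0.05 in limma. For secondary minus primordial, 11 had an unadjusted p under 0.05 (14.9%, against 12.9% of all genes), 9 of them lower. Genes were named from those detected on at least 3 captured arrays with the same sign in both compartments, the 3 largest differences each way. RFC3 and RFC5, further clamp loader subunits, were 2 of those on the lower side: RFC3 had 1938, 1358 and 560 in primordial, primary and secondary oocytes, against 1047, 770 and 658 in GC (-1.21 ± 0.43, adjusted p = 0.366), and RFC5 had 1368, 527 and 286 in oocytes, against 978, 351 and 653 in GC (-1.38 ± 0.51, adjusted p = 0.385). Without SECO the differences of RFC3 and RFC5 were -0.67 and -0.55. UNG, the uracil-DNA glycosylase of repair, differed by -1.46 ± 0.37 (adjusted p = 0.266), with 1531, 453 and 504 in oocytes, against 1335, 462 and 509 in GC. On the other side stood TUBB, a beta tubulin, at 1.74 ± 0.38 (adjusted p = 0.238). CCNL1 followed at 1.25 ± 0.43 (adjusted p = 0.36) and TFDP1, a partner of the E2F factors, at 0.91 ± 0.40 (adjusted p = 0.452). On PDO, CCNL1 had 15.9 and TFDP1 20.3, both below the limit, and each was detected on only 1 oocyte array. TUBB had 136, 143 and 566 in oocytes, against 154, 203 and 497 in GC.

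Between the compartments, the wider list held 2 genes with an unadjusted p under 0.05 (2.7%, against 10.8% of all genes). Here genes were named from those with the same sign at all 3 stages and detection on at least 3 captured arrays. CCNDBP1, a binding partner of D cyclins, was higher in oocytes, with 789, 549 and 570 on PDO, PMO and SECO, against 377, 275 and 368 on PDG, PMG and SECG (0.86 ± 0.31, adjusted p = 0.414 in limma). RAD21, a cohesin subunit that holds sister chromatids together, was lower in oocytes, with 793, 871 and 1003, against 1765, 1645 and 1536 (-0.88 ± 0.31, adjusted p = 0.414). For both genes the arrays of oocytes and GC did not overlap, which held for 3 of the 74 genes in each direction. These were 4.05% each, against 8.04% of all genes higher in oocytes and 7.18% higher in GC. The other genes named by the same rule were PRIM2, the second primase subunit, at 0.84 ± 0.40 and POLD3, a subunit of DNA polymerase delta, at 0.69 ± 0.31, and on the lower side STMN1, a tubulin-binding protein, at -0.62 ± 0.32 and ANAPC5, a subunit of the anaphase-promoting complex, at -0.60 ± 0.32. PRIM2 was detected on only 1 GC array. The compartments of STMN1 and ANAPC5 did not overlap either.

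The captured RNA was labelled by P3, so ovine fetal ovary RNA under P3 and under P1 shows how the labelling touched these probe sets. Each protocol had 1 array, and no test was possible. Of the 35 genes detected under P1, 10 were at least 2-fold lower under P3 (28.6%, against 20% of all genes) and 4 at least 2-fold higher (11.4%, against 14.8%), and the median P3 minus P1 difference was -0.52, against -0.10 over all genes. The 10 were CCND1, CKAP2, LIG1, MAD2L1, MCM3, MCM6, RNASEH2A, TYMS, UBE2C and WEE1. The 4 higher ones were BUB1B, CCND3, CDK4 and RFC4, of which RFC4 had a signal of 1658 under P3 and 681 under P1, and CDK4 1009 and 324. CCND2 had 740 under P3 and 1428 under P1, PCNA 634 and 728, and AURKA 789 and 716. P2 gave 12 lower genes (34.3%, against 17.1%) and 0 higher, against 12.2%, with a median P2 minus P1 difference of -0.23, against -0.02.

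CCND1 had 14.6 under P3 and 1.00 under P2, against 223 under P1, and it is one of the genes below the limit on all captured arrays. For genes with several probe sets, the one that stands for the gene was picked for its higher signal on the captured arrays, which are all P3, so lower P3 signals of the others follow in part from that choice. The second AURKA probe set had 132 under P3 and 874 under P1, while the probe set that stands for AURKA had 789 and 716. The second MCM6 probe set had 13.1 under P3 and 352 under P1, the second RPA2 probe set 4.60 and 210, and a second LIG1 probe set 70.5 and 832. A signal below the limit on the captured arrays does not show that the RNA was absent.

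**Figure D4:**
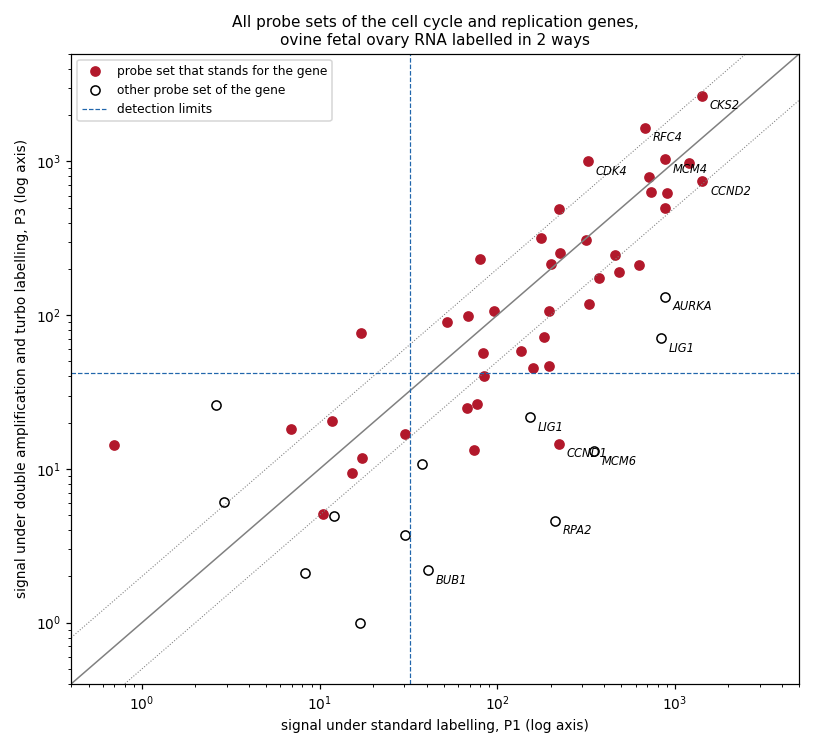
Signal of the 56 probe sets with ovine fetal ovary RNA under P3 (vertical) against P1 (horizontal), both on log axes, with lines of equality and of 2-fold difference and the detection limits dashed. Filled points stand for a gene and open points are its other probe sets; the second probe sets of RPA2, MCM6, AURKA and LIG1 lie far below the line of equality.

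The ovine and bovine fetal ovaries under P1 were compared to see how sheep RNA bound bovine probes. All but 1 of the 43 genes were detected with bovine RNA, 42 genes (97.7%, against 73.1% of all genes on that array), and 35 with ovine RNA (81.4%, against 67.9%). Of the 42, ovine RNA gave a signal at least 2-fold lower for 10 (23.8%, against 18.8%) and at least 2-fold higher for 12 (28.6%, against 11.6%), with a median ovine minus bovine difference of 0.30, against -0.01. The lower genes were BUB1, CENPF, CKAP2, MAD2L1, MCM7, PRIM1, RFC2, RPA2, RRM2 and TYMS, and 4 of them are among the 6 below the limit on all captured arrays. Among probe sets detected in either ovary, the direction depended on the probe set for RPA2, BUB1 and CKAP2. A further probe set of each had 210 with ovine and 110 with bovine RNA (RPA2), 40.9 and 10.6 (BUB1) and 37.5 and 16.2 (CKAP2). The bovine signals of the latter BUB1 and CKAP2 probe sets were below the limit. CCNB2 had 902 in the ovine and 132 in the bovine ovary, MCM4 884 and 230, RFC4 681 and 207, and CCNB1 225 and 91.6. RRM2 had 11.7 and 109, and TYMS 158 and 343. CCND2, with 1428 and 1100, PCNA, with 728 and 704, and AURKA, with 716 and 1242, differed by less than 2-fold. Species, age of the fetus and animal cannot be told apart in this pair of arrays.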

How the data were processed

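The authors deposited 1 table of linear MAS 5.0 intensities for all 10 arrays, each scaled to a target of 100 and not normalised further. The GCOS version is not given in the sources used here. Detection limits came from the present-call percentages of the study's supplement. Comparisons used log2(signal + 20). The model of limma 3.58.1 (R 4.3.3) held compartment and stage and was fitted to 11642 probe sets, those that at least 1 captured array detected. It had 2 residual degrees of freedom (5.43 prior), and p-values were adjusted by Benjamini-Hochberg over all of them at 0.05. The fit was tested on simulated data. Tables and figures were made in Python 3.11.15 with matplotlib 3.10.9.

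The members, gene lists and rules were chosen with earlier results of these data known. Per-array values were given for members whose compartments did not overlap, for those ordered alike over the stages in both compartments with at least 2-fold differences, for AURKA, PCNA and CCND2, and for members of the same role. Of the wider list, the 3 largest differences in each direction were named among genes detected on at least 3 captured arrays with 1 sign at all 3 stages (for the stages, in both compartments). Summed marker signals on PDO, PMO and SECO, then PDG, PMG and SECG, were 3868, 4059, 1450, 2160, 2635 and 1971 for cycling cells (AURKA, PCNA, CCND2), 108, 188, 241, 124, 164 and 153 for theca, 583, 466, 595, 2429, 1144 and 1421 for smooth muscle, 932, 734, 1151, 2323, 787 and 253 for endothelium, 315, 464, 441, 270, 412 and 204 for leukocytes and 794, 487, 417, 575, 428 and 318 for surface epithelium. Oocyte, granulosa, stroma and red blood cell lists are given in the results. Alternatives were other constants, a floor, quantile normalisation, other filters and detection rules, an intensity trend and leaving out single arrays.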

Additional observations from a re-analysis of the deposited data

How the results depend on the processing

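None of the 37 genes reached an adjusted p of 0.05 for oocyte minus GC, secondary minus primordial or primary minus primordial under any setting in limma. Over all probe sets, an intensity trend in the fit gave 10 calls between the compartments, against 0, and 67 between secondary and primordial follicles, a constant of 50 gave 37 there, and leaving out single arrays 0 to 18. The median secondary minus primordial difference of the 37 genes was -0.29 under quantile normalisation, and leaving out single arrays gave -0.28 (PDG) to -0.10 (PDO), against -0.17. For primary minus primordial the range was -0.15 to 0.10, with the positive value without PDO, against -0.10. Without the primordial stage, or either of its arrays, the PCNA oocyte minus GC difference was -0.002 (adjusted p = 0.999), the lowest of a range up to 0.72 without the secondary stage, against 0.35. Genes with no overlap and a higher oocyte signal numbered 1 under quantile normalisation and 10 without SECO, against 2. At least 2-fold lower at the secondary stage in both compartments was 1 gene under quantile normalisation, and at least 2-fold higher 1 with a constant of 50, against 2 each. With a signal of 100 as the limit, 11 genes were detected on no captured array, against 6. With a constant of 50, 6 genes were at least 2-fold lower under P3 than P1, against 10, and 7 higher in the ovine than the bovine ovary, against 12; P2 in place of P3 gave 0 higher genes, against 4. The causes were not tested. Leaving out single arrays also turned the secondary minus primordial differences of MCM5 (-0.07 to 0.86) and MCM6 (-0.55 to 0.92) and the oocyte minus GC difference of CCND3 (-0.09 to 0.17), a listing added after seeing the data. No paired analysis was possible because the labels number no replicates, other than the matching of oocyte and GC arrays through the stage term; without that term there were also 0 calls between the compartments.

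WEE1, FEN1, CENPF and CKAP2 lay near the detection limit. Their oocyte minus GC differences had an SE of 0.384, 0.319, 0.435 and 0.379 in limma. The brighter genes CKS2 and AURKA had an SE of 0.298 and 0.378. Whether signal over the limit set the precision was not tested.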
